A study of Mus musculus with 12 samples.

Results

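The cathepsins are the lysosomal proteases of the macrophage, and cystatin B is a cytosolic protein that inhibits the cysteine-type members. The 10 genes described here are Ctsb, Ctsc, Ctsd, Ctsf, Ctsh, Ctsk, Ctsl, Ctss, Ctsz and Cstb. They were chosen by name from the 26855 genes of the count table, with earlier results of these data known. All 10 passed the filter on low counts that left 12625 genes for testing. The values come from 12 SMART-Seq libraries, a full-length cDNA chemistry for small samples, made from alveolar macrophages in the bronchoalveolar lavage fluid of bleomycin-treated mice, 14 days after that lung-injuring drug was given. The cells had been filtered by size into a fraction rich in cells abbreviated BAAM and a fraction poor in them, and sorted by flow cytometry on side scatter and on staining with BODIPY, a neutral lipid dye. The groups are titled UPBIG, UPSMALL and DOWN, with 4 libraries each. The labels do not tie a title to a size fraction or a sorting gate, so the titles are used as names. All groups share the bleomycin treatment, and no library from untreated mice was analysed here. Strain, genotype, sex and age of the mice are not in the labels. Nothing in the labels ties the libraries of a group to different mice, and p-values therefore reflect library-to-library spread that could be technical.

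Cathepsins are made as inactive precursors, carried to the lysosome mainly by mannose 6-phosphate receptors and activated at acid pH. There they degrade proteins that the cell has taken up or recycled, trim the invariant chain and antigens for MHC class II, and, when released, cut elastin and collagen. Ctsb, Ctsc, Ctsf, Ctsh, Ctsk, Ctsl, Ctss and Ctsz are cysteine proteases, whereas Ctsd is an aspartic protease that cystatins do not inhibit. Alveolar macrophages, which clear surfactant and debris from the airspace, are among the cells known for high cathepsin content.

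The genes lie on 8 chromosomes of the mouse assembly mm10. Ctsk (chr3:95499256-95509362, plus strand) ends 17423 bases before Ctss (chr3:95526786-95556403, plus strand) begins. The others are Ctsb (chr14:63122462-63145923, plus), Ctsc (chr7:88278085-88310888, plus), Ctsd (chr7:142375911-142388038, minus), Ctsf (chr19:4855130-4860918, plus), Ctsh (chr9:90054152-90076089, plus), Ctsl (chr13:64359337-64370890, minus), Ctsz (chr2:174427493-174439039, minus) and Cstb (chr10:78425669-78427622, plus). Promoters from RefSeq (GRCm38.p6, 250 bases before to 50 bases after the annotated start) were at hand for 7 of the 10 genes, all but Ctsb, Ctsh and Cstb. They were searched on both strands for CACGTG and its longer form TCACGTG, for TCACATG, and for GAGGAAGT, a string of the kind bound by the myeloid factor PU.1. CACGTG lies inside TCACGTG, so these matches overlap. The promoters of Ctsd, Ctsk, Ctsc and Ctss are shown 5′ to 3′ because these genes span the patterns described below, with matches in capitals.
Ctsd: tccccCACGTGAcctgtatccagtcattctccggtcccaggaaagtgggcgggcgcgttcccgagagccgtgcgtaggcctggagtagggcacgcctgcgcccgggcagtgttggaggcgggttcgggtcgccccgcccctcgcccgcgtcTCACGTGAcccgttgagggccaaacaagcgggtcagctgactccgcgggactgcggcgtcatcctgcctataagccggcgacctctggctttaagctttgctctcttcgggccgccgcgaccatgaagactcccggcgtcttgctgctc
Ctsk: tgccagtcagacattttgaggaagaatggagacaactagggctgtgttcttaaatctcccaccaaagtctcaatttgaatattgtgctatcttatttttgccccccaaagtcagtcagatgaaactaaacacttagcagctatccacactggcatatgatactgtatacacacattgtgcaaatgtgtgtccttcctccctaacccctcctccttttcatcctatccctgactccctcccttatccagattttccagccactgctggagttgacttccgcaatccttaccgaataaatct
Ctsc: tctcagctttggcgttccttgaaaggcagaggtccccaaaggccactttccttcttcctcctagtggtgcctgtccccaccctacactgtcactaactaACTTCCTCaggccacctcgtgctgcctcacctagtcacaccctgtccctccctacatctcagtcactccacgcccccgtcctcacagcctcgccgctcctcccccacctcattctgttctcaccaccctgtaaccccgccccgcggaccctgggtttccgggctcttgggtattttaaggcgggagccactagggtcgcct
Ctss: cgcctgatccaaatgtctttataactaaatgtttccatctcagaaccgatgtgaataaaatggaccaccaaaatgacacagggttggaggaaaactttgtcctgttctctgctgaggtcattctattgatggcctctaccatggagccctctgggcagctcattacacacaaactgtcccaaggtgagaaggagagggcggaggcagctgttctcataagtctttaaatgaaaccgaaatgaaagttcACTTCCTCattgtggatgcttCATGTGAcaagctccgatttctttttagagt
The windows are chr7:142387778-142388077 (minus strand) for Ctsd, chr3:95498960-95499259 (plus) for Ctsk, chr7:88277835-88278134 (plus) for Ctsc and chr3:95526536-95526835 (plus) for Ctss. Counted from 0 at the annotated start to the leftmost base of the match as printed, Ctsd holds CACGTG at -245 and -98, and both lie within TCACGTG. Ctsf holds CACGTG at -79 and Ctsl at -236, so 3 of 7 promoters have it, against 7.15% of 32851 mouse promoters of this length. The Ctsl window (chr13:64370471-64370770, minus strand) lies wholly inside the gene span given above. Its match is therefore not upstream of the 5′ end of that span. The Ctsd window lies partly inside its gene span. The Ctsd match at -98 falls within that span, and the match at -245 lies upstream of its 5′ end. TCACGTG was found in Ctsd alone of the 7 (3.77% of all promoters), TCACATG in Ctss alone (at 19; 3.99%), and GAGGAAGT in Ctsc at -151 and Ctss at -2 (3.20%). Ctsk and Ctsz held none of these strings. A match is a description of the letters and not a measured binding site.

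The libraries held 17109669 to 23282621 expected read counts and 14906 to 17730 detected genes. Siglecf, Marco, Chil3 and the other 7 alveolar macrophage markers were counted in every group, and their summed level was 9109 to 12356 CPM (counts scaled to a fixed library size with TMM, edgeR's trimmed-mean factors) in UPBIG, 9440 to 14535 in UPSMALL and 7210 to 11256 in DOWN. Of the 10, 5 were higher and 1 lower in UPBIG than in DOWN at an adjusted p under 0.05. Most of the alveolar macrophage sum was Chil3, which averaged 7924 CPM in UPBIG, 9670 in UPSMALL and 7465 in DOWN. Markers of other cells summed to less and moved with the groups. In DOWN the monocyte marker Ccr2 averaged 184.0 CPM. That was above Fabp4 (151.4), Car4 (88.1), Pparg (59.0), Ear1 (22.9), Siglecf (18.1), Marco (8.00) and Krt79 (2.68). Chil3, Ear2 (756.9) and Mrc1 (371.8) were higher than Ccr2 there. The 6 monocyte markers summed to 15.8 to 28.2 CPM in UPBIG, 66.6 to 119.8 in UPSMALL and 228.6 to 277.2 in DOWN, the 9 dendritic cell markers to 7.32 to 13.7, 33.4 to 91.6 and 67.4 to 177.9, and the 8 T and NK cell markers to 3.86 to 15.5, 1.43 to 7.45 and 21.7 to 84.6, in the same order of groups. Of the tested markers, 3 of 6 monocyte, 6 of 8 dendritic cell and 6 of 8 T and NK cell genes were lower in UPBIG than in DOWN, and none of them higher. Of 8 neutrophil markers 7 have a row in the count table, which lists no gene with a total of 0, and these summed to 389.1 to 432.5 CPM in UPBIG, 187.0 to 241.5 in UPSMALL and 160.0 to 199.1 in DOWN. Ly6g, the defining neutrophil surface marker, has no row there, and Camp was at 0 in UPBIG and UPSMALL. Most of this sum was S100a8, at 375.2 CPM in UPBIG, 168.8 in UPSMALL and 128.3 in DOWN. Of the 6 tested neutrophil markers, S100a8 and Cxcr2 were higher and Mmp8 was lower in UPBIG than in DOWN. B cell markers stayed at or below 17.5 CPM, eosinophil and mast cell markers at or below 5.58 CPM without a row for Prg2, Epx and Cpa3, and lung epithelial markers between 15.0 and 70.4 CPM in all libraries but UPBIG library 2, which stood at 257.9 CPM (UPBIG median 47.8), with Sftpb at 0 in DOWN. The part of these markers in the results below was not tested. In bulk libraries, fewer cells of a type and less RNA per cell cannot be told apart.

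Per transcript length, Ctss was the most abundant of the 10 genes in every library and Ctsf the least. Lengths of principal transcripts put Ctss at 14331 ± 1064 TPM (counts divided by transcript length and scaled to a fixed total per library; SD, n = 4) in UPBIG, 20237 ± 2935 in UPSMALL and 24731 ± 3878 in DOWN. TPM carries no TMM scaling, so its differences between groups can depart from those in CPM below. Ctsh, for example, lay at 301 to 432 TPM in UPBIG and 488 to 555 in DOWN, without overlap, whereas its CPM values overlapped. Ctsd and Cstb came next to Ctss. Ctsd stood at 6232 ± 1738, 4802 ± 1332 and 3368 ± 527 TPM in UPBIG, UPSMALL and DOWN, and Cstb at 4890 ± 117, 3883 ± 130 and 3579 ± 79.2 TPM, so that the libraries of these genes overlapped in each group and their order is not resolved. In UPBIG the further order was Ctsb (1511 TPM), Ctsz (1406), Ctsl (1149), Ctsk (871), Ctsh (376), Ctsc (257) and Ctsf (4.63). Ctsb overlapped Ctsz, and Ctsz overlapped Ctsl, while the later neighbours in UPBIG did not overlap. In DOWN, Ctsc (677 TPM) stood above Ctsl (664), Ctsh (526) and Ctsk (464), although each of these neighbours overlapped the next. UPSMALL had Ctsz (1233 TPM) above Ctsb (1175), then Ctsl (945), Ctsk (645), Ctsc (466) and Ctsh (449), and all of these neighbours overlapped. With the total exon length of each gene in place of the principal transcript, Ctsz passed Ctsb and Ctsk passed Ctsl in UPBIG. In UPSMALL Ctsk passed Ctsl, and in DOWN Ctsk passed Ctsc, Ctsl and Ctsh. Ctss, Ctsd, Cstb and Ctsf kept their places with either length. Counts behind these levels were ample for 9 of the genes, from 137948 reads in all for Ctsh to 5082898 for Ctss, whereas Ctsf had 1590 reads, or 63 to 255 per library.

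**Figure D1:**
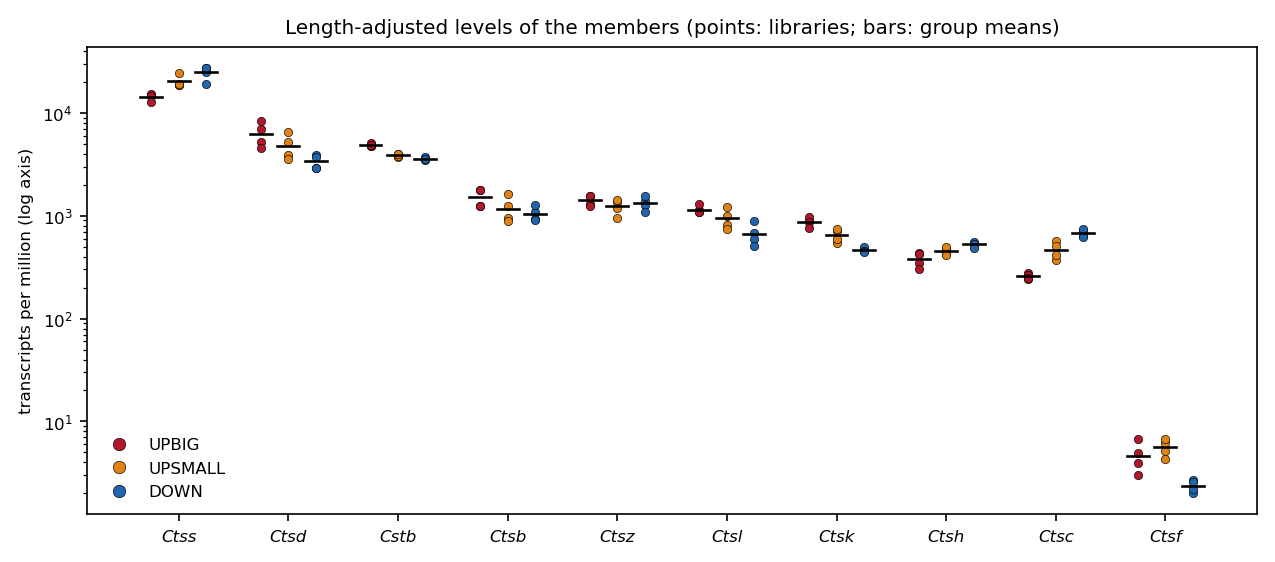
Length-adjusted level of each gene in TPM, without TMM scaling, on a log axis. Each point is a library, bars are group means, with UPBIG left, UPSMALL in the middle and DOWN right for each gene. Ctss lay at 12809 to 27444 and Ctsf at 2.01 to 6.82 TPM over the 12 libraries, and Ctsc lay below Ctsh in every UPBIG library and above it in every DOWN library.

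Between UPBIG and DOWN, 8 of the 10 genes changed, with 7 higher in UPBIG (Ctsf, Ctsk, Ctsd, Ctsl, Ctsb, Cstb and Ctsz) and Ctsc lower. Ctsh and Ctss were not called. Of all 12625 tested genes 17.5% were called in this comparison (2210 genes), 9.03% higher (1140) and 8.48% lower (1070). The median log2 fold change was 0.88 over the 10 genes and -0.03 over all tested genes. Against UPSMALL, 4 of the 10 changed in UPBIG: Ctsk, Cstb and Ctsl were higher and Ctsc lower, where 5.70% of all genes were called (3.22% higher, 2.49% lower), and the medians were 0.55 and -0.03. Between UPSMALL and DOWN, Ctsf and Ctsk were higher in UPSMALL and edgeR called no member lower, where 1.14% of all genes were called (0.594% higher, 0.547% lower), with medians of 0.22 and -0.0033. The test of any difference among the 3 groups called 8 of the 10, where 13.8% of all genes were called. The 3 pairwise comparisons share libraries and are not independent of each other. Because the 10 genes were chosen with earlier results of these data known, their shares and medians beside those of all genes are a description only.

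Scaling by library totals alone shifted the median of all genes to -0.36 (UPBIG over DOWN), -0.31 (UPBIG over UPSMALL) and -0.05 (UPSMALL over DOWN), and the calls over all genes to 518 higher and 3237 lower in UPBIG than in DOWN and to 189 higher and 1433 lower in UPBIG than in UPSMALL, against 406 and 314 with TMM. The median of the 10 genes was then 0.56, 0.28 and 0.17. With library totals 6 members were higher and 3 lower in UPBIG than in DOWN, since Ctsz lost its call and Ctsh and Ctss were called lower, and 2 were higher and 2 lower in UPBIG than in UPSMALL. The count of 4 members between UPBIG and UPSMALL was 2 without UPBIG library 1, 2 or 4 or UPSMALL library 3, and 7 with DESeq2; the count of 2 between UPSMALL and DOWN was 1 without UPSMALL library 1 or DOWN library 1, 2 or 3, and 4 with DESeq2, of which 3 were higher and 1 lower in UPSMALL. The lower gene was Ctsc (-0.46, adjusted p = 0.0361), which was also called lower with library totals, with no low-count filter and without UPSMALL library 2 (adjusted p 0.00859 to 0.0468). Over all genes DESeq2 called 1060 in UPBIG over UPSMALL and 393 in UPSMALL over DOWN, against 720 and 144 with edgeR.

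**Figure D2:**
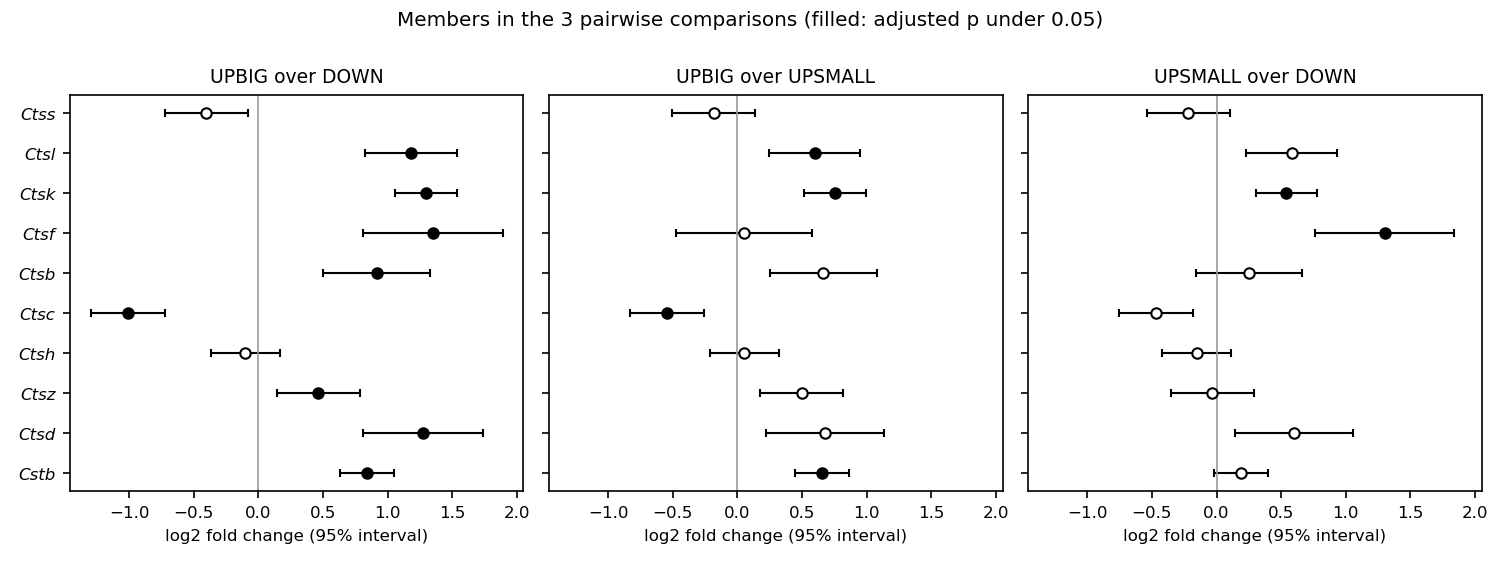
Log2 fold change of each gene (horizontal axis) with its 95% interval from edgeR in the comparisons UPBIG over DOWN, UPBIG over UPSMALL and UPSMALL over DOWN; filled points passed an adjusted p of 0.05. In UPBIG over DOWN the called rises ran from 0.46 (Ctsz) to 1.35 (Ctsf) and Ctsc stood at -1.01.

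Ctsk is a collagen- and elastin-cutting protease best known from osteoclasts. Its level was 1264, 1345, 1273 and 1113 CPM in the UPBIG libraries, 646, 843, 685 and 784 CPM in UPSMALL and 561, 481, 530 and 463 CPM in DOWN. No library of a group overlapped another group, and the order UPBIG, UPSMALL, DOWN held throughout. The log2 fold change was 1.30 ± 0.11 (SE) over DOWN (2.45-fold, edgeR adjusted p = 1.93e-07) and 0.76 ± 0.11 over UPSMALL (adjusted p = 0.000278), and UPSMALL exceeded DOWN by 0.54 ± 0.11 (adjusted p = 0.0224). Ctsk was the member with the smallest p in UPBIG over DOWN and the only 1 of the 10 called in all 3 pairs. The call in UPSMALL over DOWN was lost without UPSMALL library 2 (adjusted p = 0.0612) or DOWN library 2 (0.0676) or 3 (0.0581).

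Ctsl, an endopeptidase that degrades a wide range of proteins in the lysosome, was read at 2109, 2339, 2055 and 2088 CPM in UPBIG, 1272, 1916, 1118 and 1368 CPM in UPSMALL and 988, 1225, 900 and 677 CPM in DOWN. All UPBIG libraries lay above all others with TMM scaling, while UPSMALL and DOWN overlapped. With library totals UPSMALL library 2 (1899 CPM) lay above UPBIG libraries 1, 3 and 4 (1780 to 1822 CPM). UPBIG exceeded DOWN by 1.18 ± 0.17 on the log2 scale (adjusted p = 7.5e-05) and UPSMALL by 0.60 ± 0.17 (adjusted p = 0.0414). UPSMALL over DOWN stood at 0.58 ± 0.17 and was not called (adjusted p = 0.104). The call over UPSMALL was lost with library totals (0.33, adjusted p = 0.177) and in 9 of the 12 fits without a library, namely any UPBIG library, UPSMALL library 1, 3 or 4, or DOWN library 1 or 3 (adjusted p 0.0541 to 0.142). Exons of Ctsl overlap an antisense gene, Gm47123, over 1742 bases, and its counts came to 0.0639% of those of Ctsl.

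**Figure D3:**
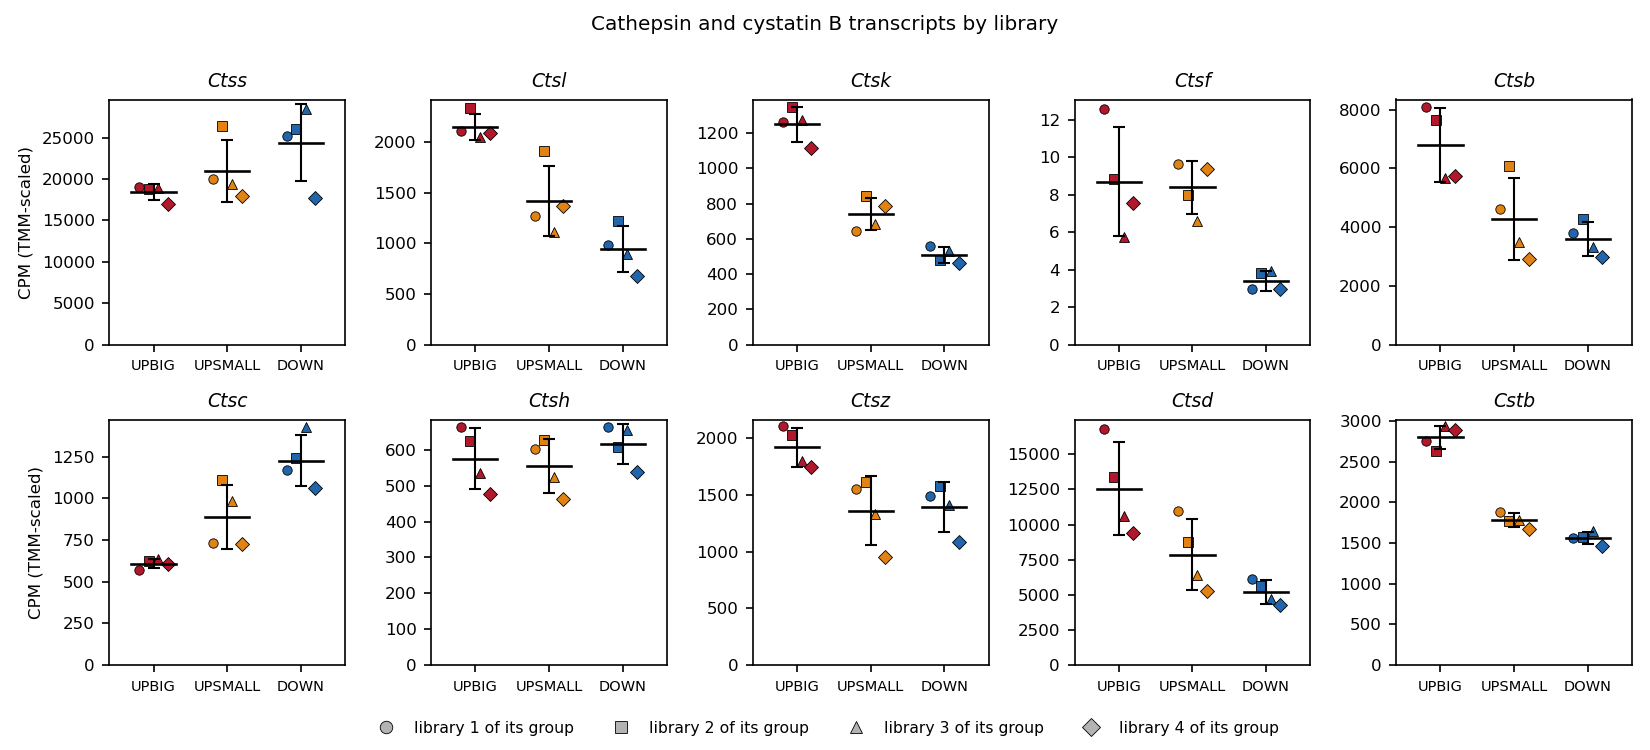
Level of each gene in CPM (TMM-scaled, vertical axis from 0) in the 4 UPBIG, 4 UPSMALL and 4 DOWN libraries; marker shapes give the library number, bars the group mean and whiskers ± 1 SD. Ctsk separates all 3 groups, Ctsc runs the other way, and Ctsd is highest in library 1 and lowest in library 4 of every group.

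Ctsf, an endopeptidase implicated in invariant chain processing in macrophages, was scarce. It was read at 12.6, 8.85, 5.74 and 7.57 CPM in UPBIG, 9.61, 8.00, 6.58 and 9.36 CPM in UPSMALL and 2.94, 3.80, 3.90 and 2.97 CPM in DOWN. UPBIG and UPSMALL overlapped, and DOWN lay below all of their libraries. The log2 fold change was 1.35 ± 0.26 for UPBIG over DOWN (adjusted p = 0.00113) and 1.30 ± 0.26 for UPSMALL over DOWN (adjusted p = 0.0191). UPBIG over UPSMALL stood at 0.05 ± 0.25 with a 95% interval of -0.47 to 0.57, and its sign turned with library totals (-0.23). The call in UPSMALL over DOWN was lost without UPSMALL library 1 (adjusted p = 0.0617) or DOWN library 1 (0.0522).

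Ctsb, which acts both as an endopeptidase and by removing dipeptides from the carboxyl end, was read at 8085, 7654, 5670 and 5739 CPM in UPBIG, 4616, 6097, 3508 and 2914 CPM in UPSMALL and 3784, 4284, 3338 and 2975 CPM in DOWN. UPBIG did not overlap DOWN, whereas UPSMALL overlapped both. UPBIG exceeded DOWN by 0.92 ± 0.20 (adjusted p = 0.00326). Over UPSMALL the difference was 0.66 ± 0.20, just short of a call (adjusted p = 0.0558), and it was called without UPSMALL library 2 (0.88, adjusted p = 0.00525). The squalene synthase gene Fdft1 shares 774 exon bases (12.8% of the exons of Ctsb) on the other strand, and whether the counting used strand is not stated. Fdft1 counts came to 1.14% of those of Ctsb and went the other way, at 13.9 ± 1.91 CPM in UPBIG against 67.9 ± 11.0 CPM in DOWN.

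Ctss keeps its activity at neutral pH and is the main protease that cuts the invariant chain in antigen-presenting cells. It was read at 19010, 18786, 18964 and 16979 CPM in UPBIG, 20015, 26408, 19414 and 17912 CPM in UPSMALL and 25223, 26052, 28480 and 17729 CPM in DOWN. In DOWN, libraries 1 to 3 lay above all UPBIG libraries and library 4 lay within their range. That overlap depended on TMM scaling. With library totals UPBIG lay at 14552 to 16825 CPM, below all libraries of UPSMALL (20229 to 26168) and DOWN (20573 to 29290). TPM gave the same separation. UPBIG over DOWN stood at -0.40 ± 0.15 (95% interval -0.72 to -0.08, adjusted p = 0.0794), UPBIG over UPSMALL at -0.18 ± 0.15 and UPSMALL over DOWN at -0.22 ± 0.15 (adjusted p = 0.598 and 0.594), none of them called. Without DOWN library 4 the difference from DOWN was -0.51 and was called (adjusted p = 0.0151), and it was also called with library totals (-0.71), DESeq2, limma-voom, a fit without the low-count filter and a fit of the 8 libraries alone, with adjusted p from 0.000614 to 0.0476. The monocyte and dendritic cell markers above were also higher in DOWN than in UPBIG, and their part in the level of Ctss was not tested.

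Ctsc removes dipeptides from the amino end of proteins and activates the serine proteases of granules. Its levels were 568, 626, 633 and 605 CPM in UPBIG, 731, 1108, 985 and 724 CPM in UPSMALL and 1169, 1240, 1428 and 1062 CPM in DOWN. Every UPBIG library lay below every library of the other groups, and UPSMALL overlapped DOWN. UPBIG over DOWN stood at -1.01 ± 0.14 on the log2 scale, or 2.01-fold lower (adjusted p = 4.04e-05), and UPBIG over UPSMALL at -0.54 ± 0.14 (adjusted p = 0.0217). The difference of UPSMALL from DOWN was -0.47 ± 0.14 and was not called (adjusted p = 0.11), and without UPSMALL library 2 it was -0.59 and was called (adjusted p = 0.0432). The call over UPSMALL was lost without UPBIG library 1, 2 or 4 or UPSMALL library 2 or 3 (adjusted p 0.0515 to 0.0789). The monocyte, dendritic cell and T and NK cell markers were lower in UPBIG than in DOWN as Ctsc was, and their part in it was not tested.

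Ctsh, an aminopeptidase, was not called in any pair. It was read at 664, 625, 537 and 477 CPM in UPBIG, 603, 629, 524 and 463 CPM in UPSMALL and 665, 609, 655 and 539 CPM in DOWN, so that all groups overlapped. The log2 fold changes were -0.10 (95% interval -0.37 to 0.17) for UPBIG over DOWN, 0.05 (-0.21 to 0.32) for UPBIG over UPSMALL and -0.15 (-0.42 to 0.11) for UPSMALL over DOWN. With library totals the difference from DOWN was -0.42 and was called (adjusted p = 0.0128), where the median of all genes was -0.36. The sign over UPSMALL turned with library totals (-0.21).

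Ctsz, which removes single residues from the carboxyl end, was read at 2108, 2031, 1804 and 1747 CPM in UPBIG, 1557, 1615, 1331 and 950 CPM in UPSMALL and 1496, 1583, 1415 and 1082 CPM in DOWN. UPBIG overlapped neither of the other groups with TMM scaling, and UPSMALL and DOWN overlapped. With library totals UPBIG (1497 to 1821 CPM) overlapped both, which reached 1601 CPM in UPSMALL and 1737 CPM in DOWN. UPBIG exceeded DOWN by 0.46 ± 0.15 (adjusted p = 0.0427), the smallest change among the called members. Against UPSMALL the difference was 0.50 ± 0.15 and was not called (adjusted p = 0.0659), though it was without UPSMALL library 2 (0.59, adjusted p = 0.0396) or DOWN library 4 (0.0404), and UPSMALL over DOWN stood at -0.03 ± 0.15. The call over DOWN was lost with library totals (0.15, adjusted p = 0.43) and without any UPBIG library, UPSMALL library 3, or DOWN library 1, 3 or 4 (adjusted p 0.0516 to 0.11).

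Ctsd, the aspartic protease of the set and a major lysosomal enzyme, was read at 16839, 13415, 10583 and 9371 CPM in UPBIG, 10942, 8768, 6433 and 5270 CPM in UPSMALL and 6150, 5613, 4727 and 4264 CPM in DOWN. UPBIG did not overlap DOWN, and UPSMALL overlapped both. In each group library 1 was the highest and library 4 the lowest, and the coefficient of variation was 26.5% in UPBIG, 32.1% in UPSMALL and 16.4% in DOWN. UPBIG exceeded DOWN by 1.27 ± 0.22 (2.42-fold, adjusted p = 0.000652). The differences of 0.68 ± 0.22 over UPSMALL (adjusted p = 0.0841) and 0.60 ± 0.22 for UPSMALL over DOWN (adjusted p = 0.229) were not called. The difference over UPSMALL was called with DESeq2 (0.69, adjusted p = 0.0122) and without UPSMALL library 1 (0.88, adjusted p = 0.0204). With the replicate number added to the edgeR fit as a block, both were called (adjusted p = 0.000143 over UPSMALL and 0.00503 for UPSMALL over DOWN). In the annotation, 808 exon bases of Ctsd (34.4%) also belong to Gm49369 on the same strand. Gm49369 has no row among the genes analysed here, and the counts of Ctsd were not whole in 1 of the 12 libraries.

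Cstb, the cystatin B gene, encodes a tight reversible inhibitor that guards the cytosol against cysteine cathepsins leaking from lysosomes. It was read at 2754, 2631, 2942 and 2890 CPM in UPBIG, 1886, 1776, 1785 and 1679 CPM in UPSMALL and 1563, 1571, 1648 and 1466 CPM in DOWN. The groups did not overlap, and the spread within a group was small, with coefficients of variation of 5.00% in UPBIG, 4.74% in UPSMALL and 4.77% in DOWN. UPBIG exceeded DOWN by 0.84 ± 0.10 (1.79-fold, adjusted p = 8.43e-06) and UPSMALL by 0.65 ± 0.10 (adjusted p = 0.000326). UPSMALL over DOWN stood at 0.19 ± 0.10, with a 95% interval of -0.02 to 0.40, and was not called (adjusted p = 0.439).

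Whether UPSMALL lay midway was asked by a test of UPSMALL against the midpoint of UPBIG and DOWN on the log2 scale, in which 0.246% of all genes were called. None of the 10 genes was called by edgeR, DESeq2 or limma-voom, and 2 of them, Ctsf and Cstb, had an unadjusted p under 0.05 in edgeR. Ctsf lay 0.63 ± 0.21 above the midpoint (unadjusted p = 0.00869, adjusted p = 0.366) and Cstb -0.23 ± 0.09 from it (unadjusted p = 0.0148, adjusted p = 0.426). For Ctsk the distance was -0.11 (95% interval -0.31 to 0.10), for Ctsl -0.01 (-0.31 to 0.30), for Ctsd -0.04 (-0.44 to 0.36) and for Ctsc 0.04 (-0.21 to 0.29).

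The 9 cathepsins took 3.86% ± 0.516 of library totals in UPBIG, 3.98% ± 0.549 in UPSMALL and 4.10% ± 0.516 in DOWN (SD, n = 4 each), ranges that overlap. With TMM scaling UPBIG had the highest mean in place of the lowest, with 44285 ± 5558 CPM in UPBIG, 38045 ± 7477 in UPSMALL and 37849 ± 6067 in DOWN, and the ranges again overlapped. Without Ctss the shares of library totals were 2.25% ± 0.440, 1.78% ± 0.341 and 1.46% ± 0.180, the TMM-scaled sums were 25850 ± 4878, 17108 ± 4220 and 13479 ± 1850 CPM, and UPBIG and DOWN did not overlap on either scale. The ratio of Ctss to Ctsk in TPM was 16.8, 15.6, 16.6 and 17.0 in UPBIG, 34.6, 35.0, 31.6 and 25.5 in UPSMALL and 50.2, 60.5, 60.0 and 42.7 in DOWN, without overlap between groups. That of Ctss to Ctsl averaged 12.5 ± 0.884, 21.8 ± 2.82 and 38.1 ± 6.19. The ratio of Cstb to the sum of the 8 cysteine cathepsins was 0.231, 0.223, 0.258 and 0.277 in UPBIG, 0.168, 0.121, 0.167 and 0.171 in UPSMALL and 0.117, 0.113, 0.112 and 0.153 in DOWN. UPBIG lay above the other groups, which overlapped each other. These sums and ratios follow from the members and carry no test of their own; the ratios to Ctsk, to Ctsl and to the cysteine cathepsin sum, of which Ctss makes up most, move with Ctss.

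**Figure D4:**
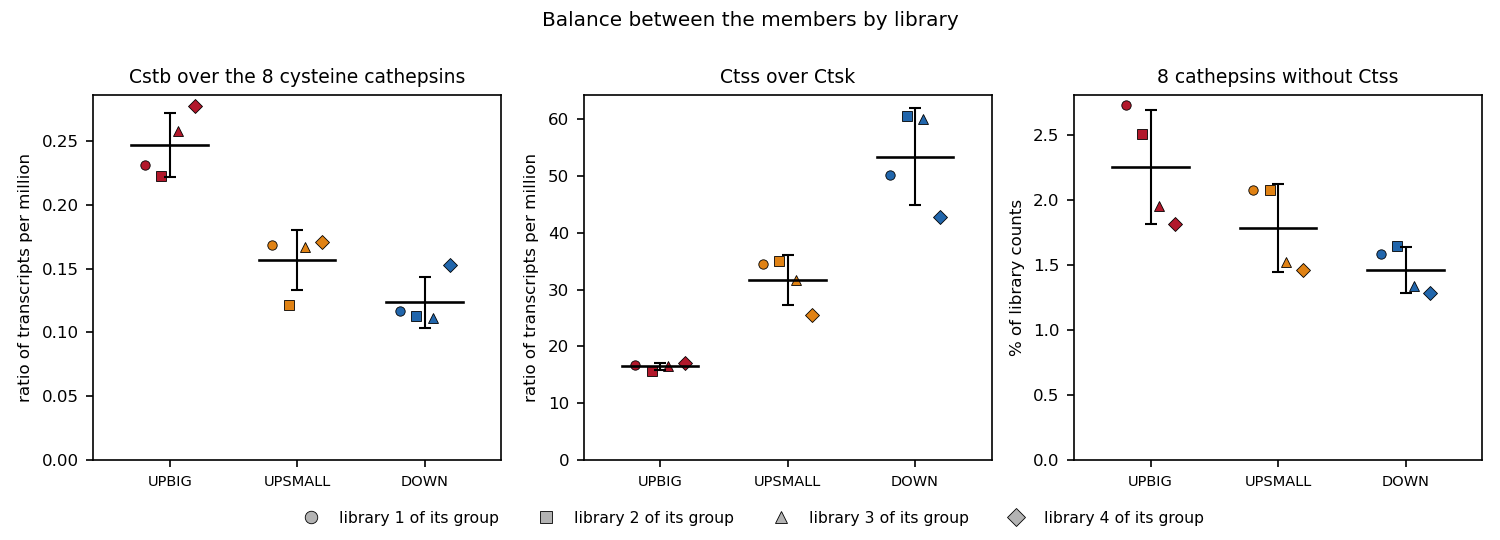
Left, ratio of Cstb to the summed cysteine cathepsins; middle, ratio of Ctss to Ctsk (both in TPM); right, share of library counts taken by the 8 cathepsins without Ctss, in percent. Points are libraries, bars group means and whiskers ± 1 SD for UPBIG, UPSMALL and DOWN; the Ctss to Ctsk ratio ran from 15.6 to 17.0 in UPBIG and from 42.7 to 60.5 in DOWN.

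The genes most like a member were sought for Ctsf, Ctsk and Ctsd, the 3 with the largest change between UPBIG and DOWN. Likeness was the root mean square difference in log2 CPM, centred on the mean of the 12 libraries, over 7117 genes. Nearest to Ctsd was Alas1, the rate-limiting enzyme of heme synthesis, at 0.0944, then the phospholipase D family member Pld3 at 0.130 and the autophagy gene Gabarapl1 at 0.213, where Ctsd itself varied by 0.605 around its mean. The genes nearest to Ctsk, which varied by 0.546, were Atp6v1b2 (0.161), a subunit of the proton pump, Tnfrsf23 (0.161) and the malic enzyme gene Me2 (0.167). For Ctsf, which varied by 0.666, Srxn1 (0.296), Med22 (0.349) and Ccnd2 (0.353) were nearest. Alas1 stood at 1.29 for UPBIG over DOWN, 0.68 for UPBIG over UPSMALL and 0.60 for UPSMALL over DOWN, beside 1.27, 0.68 and 0.60 for Ctsd. Alas1 was picked for its likeness to Ctsd in these same libraries, so near-equal fold changes follow from that choice. Likeness is a description over 12 libraries that share the groups.

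Other lysosomal proteases were called in both directions. Of 7 further genes, other cathepsins, napsin A and legumain, 5 could be tested, and between UPBIG and DOWN 2 were higher and 2 lower, with a median of -0.02. Ctsa, the protective protein of lysosomal galactosidase and neuraminidase, was higher in UPBIG (1043 ± 233 CPM, against 566 ± 79.2 CPM in DOWN; 0.88 ± 0.20, adjusted p = 0.00503). Napsa, an aspartic protease also made by type II cells, was lower, at 27.3 ± 9.70 CPM in UPBIG, 65.1 ± 3.13 in UPSMALL and 95.2 ± 10.2 in DOWN (-1.80 ± 0.19 against DOWN, adjusted p = 2.86e-06; -1.25 against UPSMALL). The asparaginyl protease gene Lgmn stood at 0.65 over DOWN, but that call was lost with library totals, with limma-voom and without UPBIG library 1 or 2 or DOWN library 3 or 4, with adjusted p up to 0.206. Ctsw, a cathepsin of NK and cytotoxic T cells, had 1 read in UPBIG, 9 in UPSMALL and 311 in DOWN, where the T and NK cell markers were also highest. Its UPSMALL over DOWN ratio, scaled for depth, was 0.0277 (95% exact interval 0.0126 to 0.0533, counting error only), and that call was lost with limma-voom (adjusted p = 0.177) and without DOWN library 3 (adjusted p = 0.0581).

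Among cystatins and related inhibitors, 3 of 9 listed genes could be tested. Cst3, the secreted cystatin C and the most abundant of them, averaged 2487 ± 212 CPM in UPBIG, 2451 ± 123 in UPSMALL and 3167 ± 221 in DOWN, and was lower in UPBIG than in DOWN by -0.35 ± 0.11 (adjusted p = 0.0285), a call lost without UPBIG library 2, 3 or 4 or DOWN library 1, 2 or 3 (adjusted p up to 0.102). Cst6, the cystatin E/M gene, was low but higher in UPBIG, at 7.74 ± 1.16 CPM against 1.45 ± 0.498 in UPSMALL (2.42 ± 0.34) and 1.23 ± 0.174 in DOWN (2.65 ± 0.34, adjusted p = 2.05e-05). The stefin A genes Stfa1, Stfa2, Stfa2l1 and BC100530 had 4 to 6 reads in all libraries together.

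Sorting receptors carry cathepsins to the lysosome, and a proton pump provides the acid pH that activates them. Of 15 genes of lysosomal enzyme sorting, 7 were higher in UPBIG than in DOWN and none lower, with a median of 0.43, and 4 were higher than in UPSMALL. Igf2r, the large mannose 6-phosphate receptor, stood at 26.9 ± 5.85 CPM in UPBIG and 9.30 ± 1.20 CPM in DOWN (1.53 ± 0.20, adjusted p = 2.64e-05), and Scarb2, the receptor of glucocerebrosidase, at 333.9 ± 24.4 and 179.2 ± 15.7 CPM (0.90 ± 0.10, adjusted p = 6.18e-06). With library totals 3 were higher and 1 lower than DOWN, and 1 higher than UPSMALL. Of 18 subunits of the V-ATPase, the proton pump that acidifies the lysosome, 13 were higher in UPBIG than in DOWN (median 0.53) and 9 higher than in UPSMALL (median 0.46), with none lower; with library totals these were 4 higher and 3 lower, and 3 higher. Atp6v1b2 averaged 716.9 ± 16.9 CPM in UPBIG and 344.0 ± 7.32 CPM in DOWN (1.06 ± 0.10, adjusted p = 2.93e-07), and Atp6v1c1 stood at 0.91 ± 0.11 (adjusted p = 1.44e-05). Between UPSMALL and DOWN the medians were 0.18 for sorting and 0.07 for the pump, and edgeR called 0 genes of either list. At an unadjusted p under 0.05 there were 5 sorting genes and 3 subunits. DESeq2 and limma-voom each called 0 sorting genes and 1 subunit, and 1 sorting gene was called with no low-count filter.

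Of 36 lysosomal hydrolases that are not cathepsins, 17 were higher and 2 lower in UPBIG than in DOWN (median 0.33), 10 higher and 1 lower than in UPSMALL (median 0.21). Between UPSMALL and DOWN edgeR called none of them, with 9 at an unadjusted p under 0.05, limma-voom none and DESeq2 1; 4 were called with no low-count filter and 1 without UPBIG library 1 or DOWN library 2 or 4. Lipa, the acid lipase that frees cholesterol and fatty acids, averaged 972.2 ± 110 CPM in UPBIG and 527.2 ± 60.7 CPM in DOWN (0.88 ± 0.13, adjusted p = 0.000126). The sulfatases Ids (-0.60 ± 0.11, adjusted p = 0.00107) and Arsb (-0.74 ± 0.16, adjusted p = 0.00274) were lower. With library totals 10 were higher and 4 lower than in DOWN, and 1 higher and 4 lower than in UPSMALL; without UPBIG library 1 or 2 or UPSMALL library 3, 6 in place of 11 were called against UPSMALL. Of the MiT/TFE transcription factors, which are known to drive lysosomal genes, Mitf was lower in UPBIG, at 18.2 ± 3.33 CPM, than in DOWN, at 29.2 ± 5.01 CPM (-0.68 ± 0.17, adjusted p = 0.00696). Tfeb, Tfe3 and Tfec were not called in any pair by edgeR with TMM scaling, where their lowest unadjusted p was 0.125. With library totals Tfec was called lower in UPBIG than in DOWN (-0.46, adjusted p = 0.0302).

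**Figure D5:**
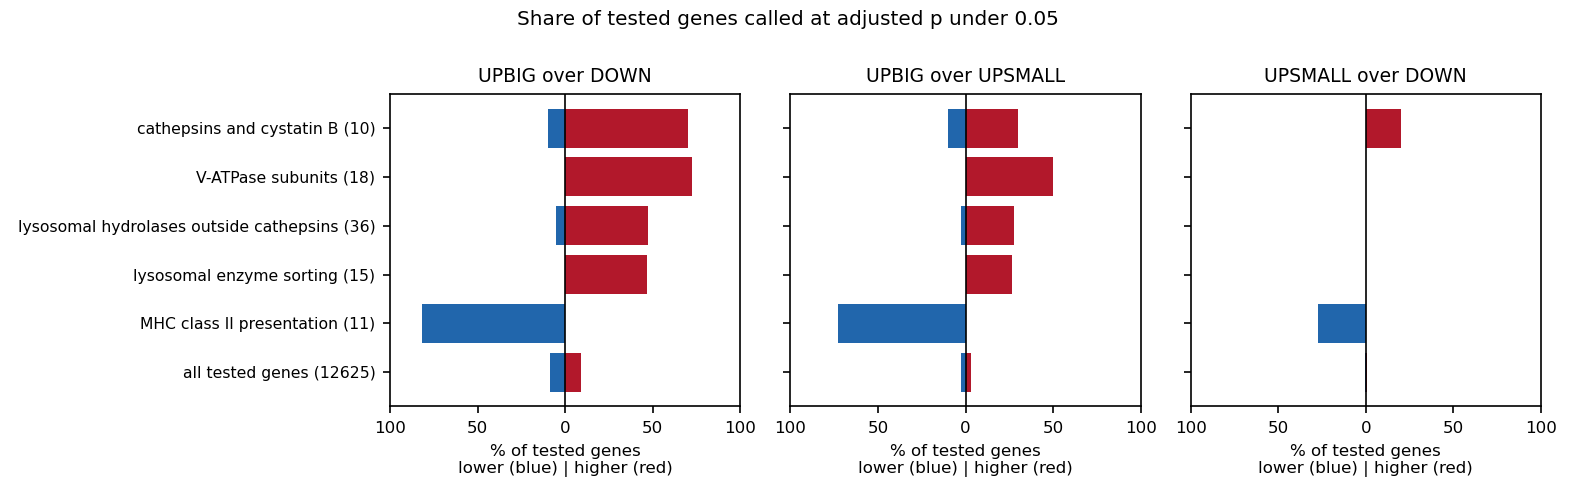
Share of tested genes in each list that were called higher (red, to the right) or lower (blue, to the left) in UPBIG over DOWN, UPBIG over UPSMALL and UPSMALL over DOWN; numbers of tested genes are in brackets. In UPBIG over DOWN, 13 of 18 V-ATPase subunits were higher (with library totals 4 higher and 3 lower) and 9 of 11 MHC class II genes were lower.

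Ctss and other cathepsins trim the invariant chain and antigens for MHC class II. Of 11 listed genes of MHC class II presentation, 9 were lower in UPBIG than in DOWN (median -2.37). Against UPSMALL 8 were lower (median -1.50), and none was higher in either comparison. H2-Eb1 stood at -3.45 ± 0.24 against DOWN (adjusted p = 1.4e-07). Cd74, the invariant chain itself, averaged 424.2 ± 78.2 CPM in UPBIG, 1735 ± 819 in UPSMALL and 4646 ± 762 in DOWN. Between UPSMALL and DOWN 3 of the 11 were lower in UPSMALL (median -1.15), a count that was 1 without UPSMALL library 4 or DOWN library 2 or 3, 5 without UPBIG library 1, and 6 with DESeq2. Dendritic cell and monocyte markers were higher in DOWN as well, and their part in this was not tested. Of 7 serine proteases that cathepsin C matures, 5 have a row and none passed the filter on low counts; Elane had 3 reads and Prtn3 28 over all 12 libraries.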

How the data were processed

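The authors deposited expected counts per gene and library, which they made from reads with STAR, RSEM and the mm10 assembly per the submitters' processing notes; tool versions, annotation and strand handling are not stated there. RSEM shares out reads that match several genes, and 13.8% of the values are not whole; among the members this holds for Ctsb and Ctsl in 11 of 12 libraries each and for Ctsd in 1. Library totals of 17109669 to 23282621 set the precision. Full-length cDNA was made by amplification directly from lysed cells, per the labels' protocols, which mention no molecular identifiers; PCR reads are then not independent molecules, and intervals from counts cover counting error only. Symbols, coordinates and transcript lengths came from GENCODE M21 (GRCm38, the mm10 assembly), and 26775 of 26855 identifiers had a symbol.

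Counts were rounded and filtered with filterByExpr, and edgeR 4.0.16 (R 4.3.3) fitted the 12 libraries in 1 model with TMM scaling and its robust quasi-likelihood F test, with group as the only term. P-values were adjusted by Benjamini-Hochberg over 12625 genes, a call is an adjusted p under 0.05, and standard errors were derived from each fold change and its F. Alternatives were size factors in DESeq2 style, library totals alone, DESeq2 1.42.0, limma-voom (limma 3.58.1) with quality weights, no low-count filter, 5 CPM in 4 libraries, a replicate block, the 8 compared libraries and each library left out. The fits were tested on simulated data.

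TPM was computed from principal transcript lengths and each library's own total. The rule for named genes took all 10 members, up to 3 called genes with the smallest p in each direction of each list, the 3 nearest genes of the 3 members with the largest change (average log2 CPM of at least 3), and genes sharing exons with a member on the other strand. The members and lists were chosen with earlier results of these data known. Stfa1, Stfa2, Stfa2l1, BC100530, Elane, Prtn3 and the uncalled transcription factors were named to identify small counts after their values were seen. Some genes covered by the naming rule are not reported here.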

Additional observations from a re-analysis of the deposited data

Results flagged for a closer look

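A test for a single sample apart from the other 3 of its group (Dixon's test at its 95% critical value) was applied to 57 groups of values, and 6 stood out; chance flags about 1 in 20 groups, and no explanation was weighed. Ctss in UPBIG library 4, at 16979 CPM, lay below the other UPBIG libraries, which lay between 18786 and 19010 CPM. The sum of the 8 cysteine cathepsins in UPSMALL library 2, at 30661 TPM, lay above the other UPSMALL libraries, which lay between 23011 and 23493 TPM. In the same library the ratio of Cstb to that sum was 0.121, against 0.167 to 0.171 in the other UPSMALL libraries. That ratio was 0.153 in DOWN library 4, against 0.112 to 0.117 in the other DOWN libraries. The summed level of the 9 cathepsins was 28795 CPM in DOWN library 4, against 40038 to 41476 CPM in the other DOWN libraries. The ratio of Ctsd to Ctss was 0.348 in UPSMALL library 1, against 0.187 to 0.212 in the other UPSMALL libraries. The 2 flags of UPSMALL library 2 share the same sum and are not independent. Those of DOWN library 4 both draw on the 8 cysteine cathepsins and are not independent either.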

How the results depend on the processing

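Over 30 member values and 20 alternatives (600 values), 529 kept their direction and side of the threshold, 29 lost a call, 33 gained a call and 9 turned sign, none of the last being called. In UPBIG over DOWN, Ctsb, Ctsc, Ctsd, Ctsf, Ctsk, Ctsl and Cstb stayed called in all 20. The count of members called in UPBIG over UPSMALL (4) was 7 with DESeq2, 7 with the replicate block and 2 to 5 with a library left out; in UPSMALL over DOWN (2) it was 4 with DESeq2, 4 with no low-count filter, 5 with the replicate block and 1 to 2 with a library left out. Over all genes, UPBIG over UPSMALL (720) had 1060 calls with DESeq2, 1025 with the replicate block and 500 to 762 with a library left out. Library totals gave 3755 calls over all genes in UPBIG over DOWN, 1622 in UPBIG over UPSMALL, 66 against the midpoint and 3021 for any difference. UPSMALL over DOWN (144) had 393 calls with DESeq2, 226 with limma-voom, 460 with no filter, 275 with the replicate block and 58 to 179 with a library left out, and the midpoint test (31) had 129, 50, 241, 103 and 24 to 60, and 47 at the stricter filter. Ctsf in UPBIG over UPSMALL was -0.23 with library totals and -0.18 to 0.21 with a library left out, negative without UPBIG library 1 (-0.18) or UPSMALL library 3 (-0.049). Ctsh there was -0.21 with library totals and -0.021 to 0.14 with a library left out, at -0.021 without UPBIG library 1 and -0.017 without UPSMALL library 4. Ctsz in UPSMALL over DOWN ran from -0.13 to 0.11, positive without UPSMALL library 4 (0.11), DOWN library 1 (0.011) or DOWN library 2 (0.048). Calls gained outside the replicate block and the libraries left out were, in UPBIG over UPSMALL, Ctsb with DESeq2-style size factors (adjusted p = 0.0497), DESeq2 (0.00732), no filter (0.00474) and the stricter filter (0.0481), Ctsd with DESeq2 (0.0122), Ctsz with DESeq2 (0.0184), limma-voom (0.0397) and no filter (0.000781) and Ctss with library totals (0.0321), and in UPSMALL over DOWN, Ctsc with library totals (0.0468), DESeq2 (0.0361) and no filter (0.00859) and Ctsl with DESeq2 (0.0263) and no filter (5.82e-05), beside those of UPBIG over DOWN given above. The cause of these changes was not tested, except that library totals shift all genes as given above.

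The labels do not say whether the replicate numbers in the titles pair the samples. Of 12 same-number correlations 6 exceeded 0.1 (range -0.03 to 0.15, against -0.12 to 0.11 for other numbers). By contrast, 9 of 12 libraries correlated best with their own number, a hint from the data and not the design. These correlations are small and cannot decide whether the samples are paired. With the replicate block, Ctss in UPBIG over DOWN was called (adjusted p = 0.0205), Ctsb, Ctsd (0.000143) and Ctsz in UPBIG over UPSMALL were called, and Ctsc, Ctsd (0.00503) and Ctsl in UPSMALL over DOWN were called, as were 2 lysosomal hydrolases and 1 V-ATPase subunit in UPSMALL over DOWN. The counts over the gene lists and the values of list genes under each alternative were added after seeing the data. Ctsf, with 63 to 255 reads per library, is the member that depth limits most.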
